A study of Mus musculus with 22 samples.

Results

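The voltage-gated sodium, calcium and potassium channel genes of the mouse colon crypt were taken as every gene whose symbol starts with Scn followed by a number and a or b, with Cacna, Cacnb or Cacng, or with Kcn, without Scn2b. This choice by name alone gave 137 of the 24421 genes counted, and all 137 were tested. They were 40 pore subunits of voltage-gated potassium (Kv) channels, 17 potassium channel auxiliary subunits, 15 inward rectifiers (Kir), 14 tandem-pore leak channels (K2P), 8 calcium- or sodium-activated potassium channels, 10 pore subunits of calcium channels (Cav) with 4 beta, 4 alpha2delta and 8 gamma genes, 10 pore subunits of sodium channels (Nav) with 3 beta subunits, and 4 noncoding genes of these loci. The leak channels, the inward rectifiers, part of the calcium-activated channels and the auxiliary subunits do not sense voltage themselves and belong to the set through their names.

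The 22 RNA-seq libraries came from wild type C57BL/6N male mice aged 5 to 7 weeks, with no other treatment or allele in any group. All cells were Epcam+ Cd31- Cd45- colon crypt cells, sorted by Cd44, Cd24 and Ckit into 6 groups. Stem cells (Stem, n = 3) were Cd44highest, Cd24low and Ckit-, and absorptive progenitors (AbsPro, n = 3) were Cd44med/hi, Cd24low and Ckit-. The mixed group of secretory progenitor, deep crypt secretory and goblet cells (SecPDG, n = 4) was Cd44hi, Cd24med and Ckitmed, and tuft cells (Tuft, n = 5) were Ckit+ and Cd24hi. Enterocytes (Ent, n = 5) were Cd44low/- and Cd24-, and enteroendocrine cells (EEC, n = 2) were Cd44low/- and Cd24+. Replicates were independent mice and sorts of at least 2500 cells, and every group but Stem and AbsPro pooled several mice per sample. SecPDG and Tuft libraries carried another form of file name than the other 4 groups, and anything tied to that difference cannot be told apart from cell type. In sorted bulk samples, fewer cells of a type and less RNA per cell cannot be told apart.

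Voltage-gated channels open and close with the voltage across the cell membrane. Sodium channels drive the fast upstroke of an action potential, calcium channels let in the calcium that triggers secretion, and potassium channels return the membrane to rest and set its resting voltage. In colon epithelium, basolateral potassium channels recycle potassium and hold the driving force for chloride secretion, apical potassium channels secrete potassium, and enteroendocrine cells use sodium and calcium channels to couple stimuli to hormone release.

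The starts of 5 member genes are shown because the results below turn on them: Kcne3 and Kcnk1, the most abundant members per length in several cell types, Kcnma1 for the members that were high in both SecPDG and Tuft, Kcnd3 for tuft cells, and Kcnc1 for enteroendocrine cells. Each is a RefSeq promoter window of GRCm38.p6, 5′ to 3′ on the gene's strand. Capitals mark the E-box CAGNTG, which reads CANCTG when it lies on the other strand.
Kcne3, chr7:100178433-100178732, plus strand: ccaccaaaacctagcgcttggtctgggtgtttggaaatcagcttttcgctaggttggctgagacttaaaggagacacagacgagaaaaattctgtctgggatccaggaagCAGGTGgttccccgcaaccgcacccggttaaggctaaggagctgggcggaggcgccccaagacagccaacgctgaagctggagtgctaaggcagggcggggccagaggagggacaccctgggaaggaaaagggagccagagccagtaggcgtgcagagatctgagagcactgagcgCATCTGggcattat
Kcnk1, chr8:125994852-125995151, plus strand: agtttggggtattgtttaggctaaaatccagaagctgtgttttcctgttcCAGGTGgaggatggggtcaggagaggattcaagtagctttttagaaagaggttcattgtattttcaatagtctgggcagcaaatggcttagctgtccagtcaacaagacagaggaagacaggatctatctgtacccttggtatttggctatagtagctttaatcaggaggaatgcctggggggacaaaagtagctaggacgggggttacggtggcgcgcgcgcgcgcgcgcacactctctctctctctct
Kcnma1, chr14:24004156-24004455, minus strand: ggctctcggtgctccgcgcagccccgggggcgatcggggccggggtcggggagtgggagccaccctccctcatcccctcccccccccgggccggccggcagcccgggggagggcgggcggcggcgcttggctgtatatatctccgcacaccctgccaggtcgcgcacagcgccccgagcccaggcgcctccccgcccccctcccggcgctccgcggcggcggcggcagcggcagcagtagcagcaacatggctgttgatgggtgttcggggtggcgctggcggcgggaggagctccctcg
Kcnd3, chr3:105451640-105451939, plus strand: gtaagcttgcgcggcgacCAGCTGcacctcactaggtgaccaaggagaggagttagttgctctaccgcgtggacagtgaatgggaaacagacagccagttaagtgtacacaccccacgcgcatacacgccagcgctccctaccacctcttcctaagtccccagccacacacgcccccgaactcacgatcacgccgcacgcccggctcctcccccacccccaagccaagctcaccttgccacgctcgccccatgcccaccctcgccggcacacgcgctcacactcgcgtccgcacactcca
Kcnc1, chr7:46396218-46396517, plus strand: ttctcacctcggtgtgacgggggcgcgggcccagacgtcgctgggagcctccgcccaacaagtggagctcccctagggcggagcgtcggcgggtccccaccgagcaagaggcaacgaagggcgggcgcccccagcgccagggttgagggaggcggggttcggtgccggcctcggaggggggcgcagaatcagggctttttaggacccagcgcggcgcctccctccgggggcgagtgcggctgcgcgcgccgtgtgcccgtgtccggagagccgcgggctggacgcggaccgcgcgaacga

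The Kcne3 window held 2 E-boxes and 2 GC boxes (GGGCGG, both strands), and Kcnk1 and Kcnd3 held 1 E-box each and no GC box. Another Kcne3 window upstream, chr7:100176420-100176719, is not shown and held 2 E-boxes and no GC box. The Kcnma1 and Kcnc1 windows held no E-box and 3 GC boxes each. An E-box was found in 51.4% of 32851 promoters of the same length and in 55.6% of the 135 promoters that matched 100 of the members, and a GC box in 35.7% and 45.9%. The Kcnc1 window was rich in CpG, with 41 of them, more than 96.5% of promoters. The Cdx-type motif TTTATNG stood in 5.19% of member promoters against 10.9% of all, and the octamer ATGCAAAT in 0.741% against 1.74%. These matches only describe the letters of the windows.

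Counts on genes ran from 4122122 to 22462518 per library. Between 40.9% and 49.4% of read pairs lay outside genes in Stem, AbsPro and SecPDG, 43.4% to 68.0% in Tuft, 66.8% to 83.1% in Ent and 64.5% to 89.7% in EEC, where EEC 1 had the fewest counts and the highest share. Gene families with no known expression in colon epithelium (1553 olfactory and vomeronasal receptor, trace amine receptor, beta-defensin and keratin-associated protein genes) held 12.6 to 161 CPM (counts scaled to library size) in Stem, AbsPro and SecPDG, against 184 to 1514 in Tuft, 802 to 3995 in Ent and 634 to 7240 in EEC. The summed tuft markers averaged 42151 normalized counts in Tuft and at most 5624 elsewhere, and the enteroendocrine markers 1156030 in EEC and at most 13537 elsewhere. Goblet markers averaged 1487240 in SecPDG and 963792 in Tuft, but also 381661 in Ent and 174307 in AbsPro, against 24086 in Stem and 45081 in EEC. Enterocyte markers averaged 56642 in Ent and 74790 in AbsPro, and the EEC libraries, at 20936 and 131375, lay on either side of these. Stem markers averaged 20188 in Stem and at most 8324 in the other groups.

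Because many channel genes are long and lowly expressed, each value was read beside the background of its own library. The background was the count per kilobase of exon of the receptor and defensin families, multiplied by the member's exon length. A member was taken as clear of background in a cell type where this estimate was under 20% of its mean there. The same rate was subtracted where the background was later taken off. For a clear member this removes under 20% of its mean by definition, so a call that stays adds little. The median member stood at only 1.36 to 1.80 times its expected background, depending on the cell type. On this measure 34 members were clear in Stem, 39 in AbsPro, 31 in SecPDG, 17 in Tuft, 7 in Ent and 24 in EEC. In the groups with little background, members with few reads could pass. Those clear and averaging at least 50 normalized counts were 15 in Stem, 21 in AbsPro and 20 in SecPDG. They were 17 in Tuft, 7 in Ent and 24 in EEC, so EEC then had the most. Of the 137 members, 77 were clear in none of the 6 types, 28 in 1 type only, and 5 in all 6. These verdicts and the medians rest on the chosen rate. A rate from all models of the background families was lower, at 0.367 against 1.06 counts per kilobase in Stem 1. It was 4.56 against 14.7 in Ent 1 and 5.75 against 18.7 in EEC 1. The number of members clear at that lower rate was not counted, and it could be larger.

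**Figure D1:**
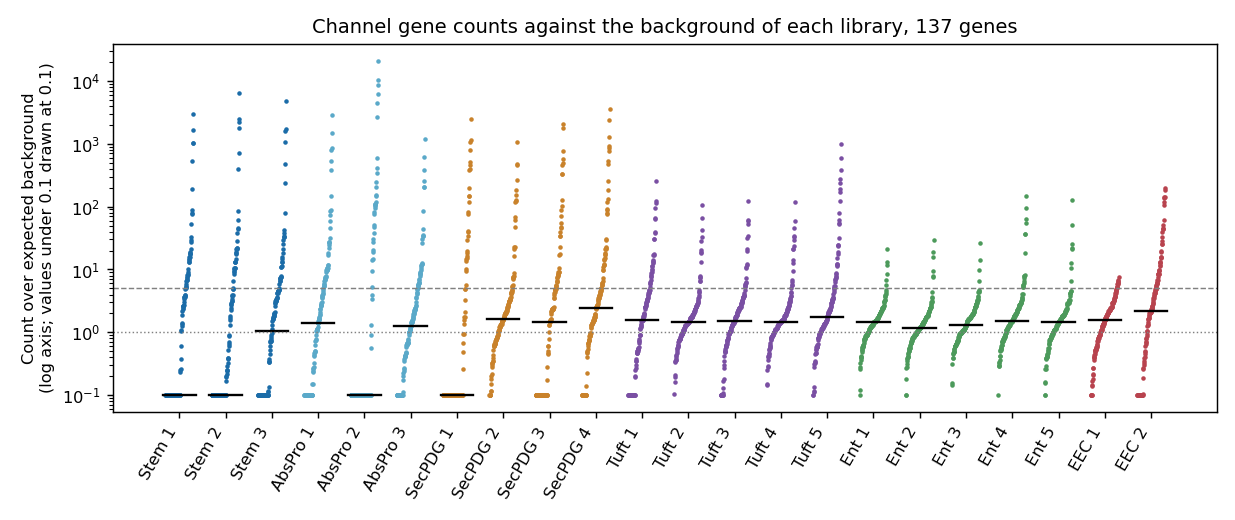
Count of each of the 137 channel genes in each of the 22 libraries divided by the background expected for its length (log axis, values under 0.1 drawn at 0.1), with the median as a bar, a dashed line at 5 times background and a dotted line at 1. In EEC 1 only 11 genes reach 5 times background and in the Ent libraries 4 to 17, against 45 in EEC 2, 32 to 38 in Stem and 32 to 43 in AbsPro.

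Background made up a small part of the channel RNA in the crypt-base groups and a large part in the others. It came to 2.78% of the members' summed normalized counts in Stem, 3.78% in AbsPro, 3.53% in SecPDG, 22.1% in Tuft, 26.7% in EEC and 51.8% in Ent. The sum itself was 17662 ± 898 (SD, n = 3) in Stem, 14858 ± 1026 (n = 3) in AbsPro, 21352 ± 3557 (n = 4) in SecPDG, 27552 ± 1575 (n = 5) in Tuft, 23270 ± 2584 (n = 5) in Ent and 56334 ± 13116 (n = 2) in EEC. The largest corrected levels per kilobase belonged to potassium channel genes in 5 groups: Kcne3 at 2823 normalized counts per kilobase in Stem, 1905 in AbsPro and 797 in Ent, and Kcnk1 at 1786 in SecPDG and 1425 in Tuft. In EEC they belonged to calcium channel genes, Cacna1a at 636 and Cacna1h at 629, followed by Cacna2d1 at 502.

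The potassium channels of the crypt base were led by Kcnq1 and Kcne3. Kcnq1 encodes the pore of a slow voltage-gated channel, and Kcne3 the small subunit that holds this pore open at rest. Kcnq1 (chr7:143106362-143427042, plus strand, GENCODE vM21) read 4082, 3353 and 3579 normalized counts in Stem and 1837, 2515 and 1642 in AbsPro. In SecPDG it read 718, 770, 1074 and 1209, in Tuft 640 to 1179, in Ent 408 to 811, and in EEC 465 and 791. Every Stem library stood above every library of the other groups, and all 5 Ent libraries stood below all 3 AbsPro libraries. The fitted log2 differences from Stem were -1.96 ± 0.30 (SE) in SecPDG, -2.00 ± 0.29 in Tuft, -2.60 ± 0.29 in Ent and -2.52 ± 0.41 in EEC, with adjusted p (edgeR quasi-likelihood) of 2.63e-06, 2.49e-07, 7.40e-10 and 2.48e-06. AbsPro differed from Stem by -0.88 ± 0.32 (adjusted p = 0.222), and the fall from AbsPro to Ent was -1.72 ± 0.30 (adjusted p = 2.48e-05). The calls for Kcnq1 in these 4 groups against Stem and in Ent against AbsPro were kept in every alternative run.

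Kcne3 (chr7:100176502-100184869, plus strand) followed the same order at its top. Its counts were 4028, 4903 and 5428 in Stem, 3440, 3380 and 2868 in AbsPro, and 1238, 1578, 2313 and 2062 in SecPDG. They ranged from 975 to 2001 in Tuft and from 774 to 2444 in Ent, and were 434 and 115 in EEC. No library of SecPDG, Tuft, Ent or EEC reached the lowest AbsPro library. Against Stem the log2 difference was -1.41 ± 0.34 in SecPDG, -1.86 ± 0.32 in Tuft, -1.80 ± 0.32 in Ent and -4.22 ± 0.55 in EEC (edgeR adjusted p = 0.00300, 1.46e-05, 1.42e-05 and 1.35e-08). EEC also stood below Ent (-2.43 ± 0.52, adjusted p = 6.93e-04), a call that was lost without EEC 2 (adjusted p = 0.0350). The call in SecPDG was lost without Stem 3, SecPDG 1 or SecPDG 2, each left out alone.

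The K2P leak channel genes Kcnk1 and Kcnk5 differed in where they were high. Kcnk1 (chr8:125995170-126030685, plus strand), which sets background potassium current, read 3473, 4878, 3493 and 4128 in SecPDG and 2648 to 4310 in Tuft. It read 1887, 2204 and 2410 in Stem, 2349, 2210 and 1970 in AbsPro, 635 to 1556 in Ent and 479 and 791 in EEC. The SecPDG and Tuft libraries all stood above Stem and AbsPro without passing the test (0.88 ± 0.32 in SecPDG against Stem, edgeR adjusted p = 0.0850). Ent (-1.14 ± 0.31, adjusted p = 0.00186) and EEC (-1.75 ± 0.43, adjusted p = 9.07e-04) were lower than Stem. The Ent call was lost, at -0.50, when EEC 1 and Ent 1 to 3, the libraries with the most background, were left out. Kcnk5 (chr14:20140057-20181809, minus strand), an acid-sensitive leak channel, ran the other way: 528, 605 and 544 in Stem, 1282, 847 and 994 in AbsPro and 680 to 1581 in Ent, but 147 to 292 in Tuft. Tuft was lower than Stem (-1.39 ± 0.33, adjusted p = 0.00119; lost without Tuft 2 to 4, at -1.21), and Ent against Stem missed the threshold of 0.01 (0.88 ± 0.30, adjusted p = 0.0106).

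Kcnn4, the intermediate-conductance calcium-activated potassium channel, and Cacnb3, a beta subunit that brings calcium channel pores to the membrane, were lower in Ent than in Stem. Kcnn4 (chr7:24370263-24386690, plus strand) read 1680, 1609 and 1476 in Stem, 743 to 1180 in AbsPro, 186 to 838 in Ent, and 362 and 4.85 in EEC. SecPDG libraries lay between 644 and 969, and Tuft libraries between 661 and 1510. Tuft 1 alone of the other libraries reached the lowest Stem library, and the EEC libraries differed widely. Its log2 difference from Stem was -1.95 ± 0.36 in Ent (edgeR adjusted p = 1.94e-05) and -3.32 ± 0.59 in EEC (adjusted p = 9.56e-06). The EEC value was -8.48 without EEC 1 and -2.14 without EEC 2, and neither call was made by DESeq2. Cacnb3 (chr15:98630840-98644529, plus strand) read 1277, 951 and 958 in Stem, 787 to 1271 in AbsPro and 288 to 818 in Ent. SecPDG libraries lay between 726 and 801, and Tuft libraries between 688 and 1064. EEC read 530 and 2343, so that EEC 2 exceeded every Stem library and EEC 1 none. The difference of Ent from Stem, -1.15 ± 0.33 (edgeR adjusted p = 0.00283), shrank to -0.65 under DESeq2's size factors and was then not called.

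**Figure D2:**
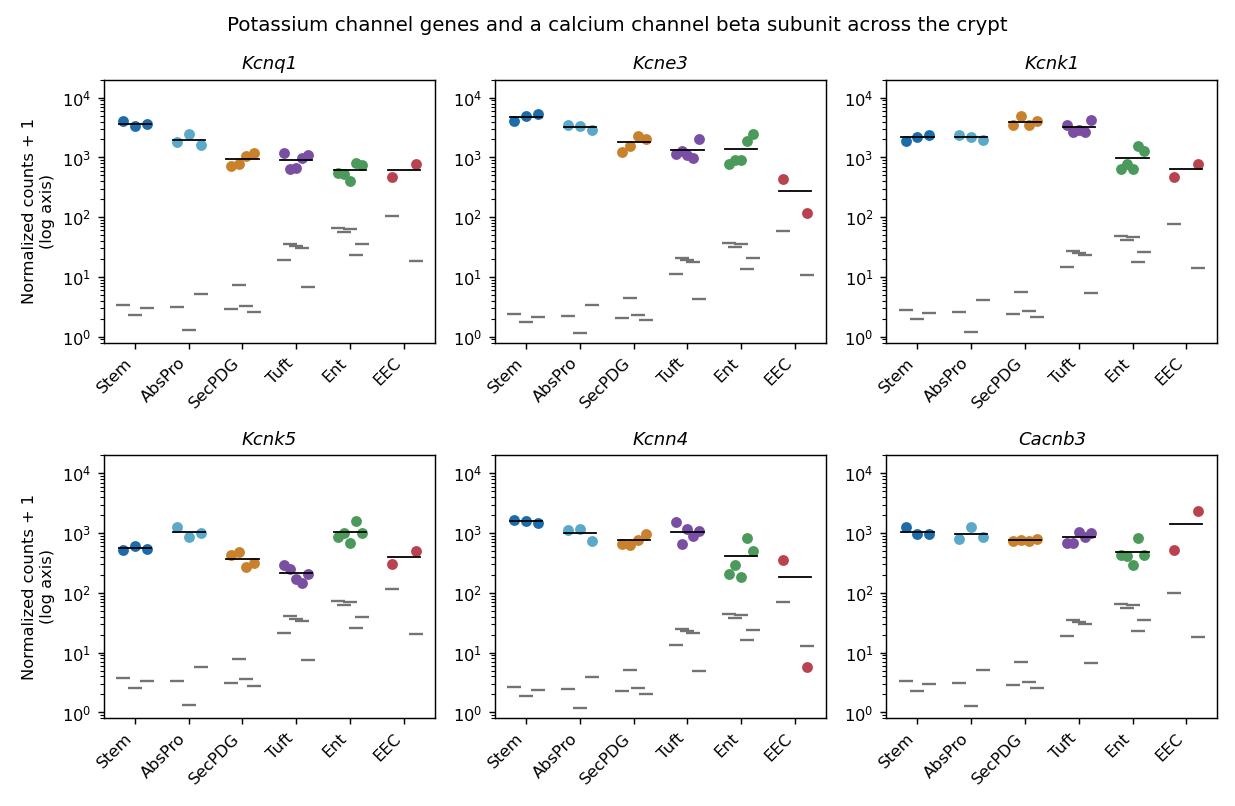
Normalized counts of Kcnq1, Kcne3, Kcnk1, Kcnk5, Kcnn4 and Cacnb3 in the 6 cell types, with each library as a point, the group mean as a black line and the expected background of each library as a grey dash. Kcnq1 falls from 3353 to 4082 in the Stem libraries to 408 to 811 in the Ent libraries, and Kcnk1 is highest in SecPDG at 3473 to 4878.

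Between the 2 groups sorted as Ckit- and Cd24low, AbsPro against Stem, the test called 0 of the 137 members, where 0.588% of all genes tested were called (0.496% higher and 0.0922% lower). At an unadjusted p under 0.05 there were 15, and DESeq2's Wald test called 3. The shares of all genes at these settings are not given here. The 3 were Cacna1h, Kcne1 and Kcnmb1, of which Kcne1 and Kcnmb1 were clear of background in no cell type. Kcnma1 came nearest among the members of the figures, at 1.59 ± 0.47 with edgeR's adjusted p = 0.0803, with AbsPro values of 396, 91.1 and 589 against 177, 119 and 62.7 in Stem.

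SecPDG differed from Stem in 11 members, 8 higher and 3 lower, where 4.97% of all genes were called (3.38% higher, 1.59% lower). All 11 were clear of background in the group where they were higher, and in each the libraries of the groups did not overlap. The share of all called genes without overlap is not given here, so this count cannot be weighed. The lower members were Kcnq1, Kcne3 and the antisense transcript Kcnq1ot1 (-1.71 ± 0.37, edgeR adjusted p = 8.89e-04, lost with the background taken off and without SecPDG 1). Kcnq1ot1 lies within Kcnq1 on the opposite strand, and the counting ignored strand, so strand cannot tell reads of the pair apart. Ambiguous reads, which match more than 1 gene, stayed out of the counts. In Ent, where Kcnq1 averaged 608, Kcnq1ot1 averaged 2375, of which 62.2% was expected background. The 8 higher members remained called with DESeq2's size factors and by DESeq2. They also remained called with the background taken off, which adds little for clear members. They were 1 calcium-activated potassium channel, 1 K2P channel, 3 Kv pores of the ether-a-go-go family, 2 calcium channel pores and 1 alpha2delta subunit.

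Kcnma1 (chr14:23289431-24014491, minus strand) showed the largest counts among these. It encodes the large-conductance BK channel, opened by both calcium and voltage, which secretes potassium into the colon lumen. Against 177, 119 and 62.7 in Stem it read 3574, 4646, 3142 and 2979 in SecPDG and 2911, 2660, 2583, 1729 and 2966 in Tuft. It read 666 ± 189 (SD, n = 5) in Ent, where 29.3% was background, and 582 and 451 in EEC. The lowest SecPDG or Tuft library exceeded the highest library of the other groups. The log2 difference from Stem was 4.92 ± 0.44 in SecPDG (edgeR adjusted p = 1.18e-12) and 4.44 ± 0.43 in Tuft (adjusted p = 3.90e-12), while Tuft against SecPDG was -0.48 ± 0.29 (adjusted p = 0.228). Both calls held in every alternative. The gene on the opposite strand, 4930519K11Rik, averaged 4.22 in SecPDG and 25.5 in Tuft.

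Kcnk6 (chr7:29221926-29232515, minus strand), a K2P gene whose channel passes little current in most assays, had a like profile. Its counts were 260, 79.4 and 91.6 in Stem, 2741, 4006, 2351 and 2685 in SecPDG and 1400 to 3083 in Tuft, against 335 to 553 in Ent and 123 and 456 in EEC. It was higher than Stem by 4.39 ± 0.43 in SecPDG (edgeR adjusted p = 9.13e-12) and 4.02 ± 0.42 in Tuft (adjusted p = 3.84e-11). Kcnh3 (chr15:99224861-99242817, plus strand), an ether-a-go-go-like pore best known from forebrain, read 269, 102 and 85.6 in Stem, 1595 to 2045 in SecPDG and 867 to 1701 in Tuft. Its increases were 3.57 ± 0.40 (adjusted p = 9.67e-10) and 3.17 ± 0.40 (adjusted p = 8.60e-09). The counting did not use strand, and Mcrs1 overlaps Kcnh3 from the opposite strand. Mcrs1 averaged 207 in Stem, 194 in SecPDG and 247 in Tuft, and the part of its reads in these Kcnh3 counts was not tested.

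Kcnh2 (chr5:24319589-24351604, minus strand), the ERG pore that repolarizes heart muscle, was almost absent from stem cells. It read 9.94, 1.28 and 10.1 in Stem, 253 to 458 in SecPDG, 353 to 580 in Tuft, 128 to 203 in Ent, and 362 and 1192 in EEC. Its log2 difference from Stem was 5.68 ± 0.67 in SecPDG (edgeR adjusted p = 1.67e-09), 6.08 ± 0.63 in Tuft (adjusted p = 2.77e-11) and 6.84 ± 0.67 in EEC (adjusted p = 1.74e-12). In Ent it was not clear of background, at 1.83 to 3.70 times the expected count.

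The calcium channel genes higher in both secretory groups were Cacna1h, Cacna1b and Cacna2d2. Cacna1h encodes a low-voltage (T-type) pore, Cacna1b the N-type pore of nerve endings, and Cacna2d2 an alpha2delta subunit that raises the number of channels at the surface. Cacna1h (chr17:25374285-25433783, minus strand) read 32.1, 11.5 and 10.1 in Stem, 249 to 390 in SecPDG and 459 to 966 in Tuft, with log2 differences of 4.30 ± 0.68 (edgeR adjusted p = 3.52e-06) and 5.37 ± 0.63 (adjusted p = 1.15e-09). Tpsg1, on the opposite strand with overlapping exons, moved with it: 22.2 in Stem, 1225 in SecPDG and 863 in Tuft, and the part of its reads in these Cacna1h counts was not tested. Cacna2d2 (chr9:107399612-107529343, plus strand) read 157, 48.7 and 51.9 in Stem, 535, 1414, 569 and 766 in SecPDG and 761 to 1234 in Tuft, a rise of 3.28 ± 0.44 (adjusted p = 9.51e-08) and 3.55 ± 0.43 (adjusted p = 3.75e-09). Cacna1b rose by 3.77 ± 0.56 and 4.19 ± 0.53, from 3.84 to 43.1 counts in Stem to 251 to 453 in SecPDG and 347 to 506 in Tuft.

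**Figure D3:**
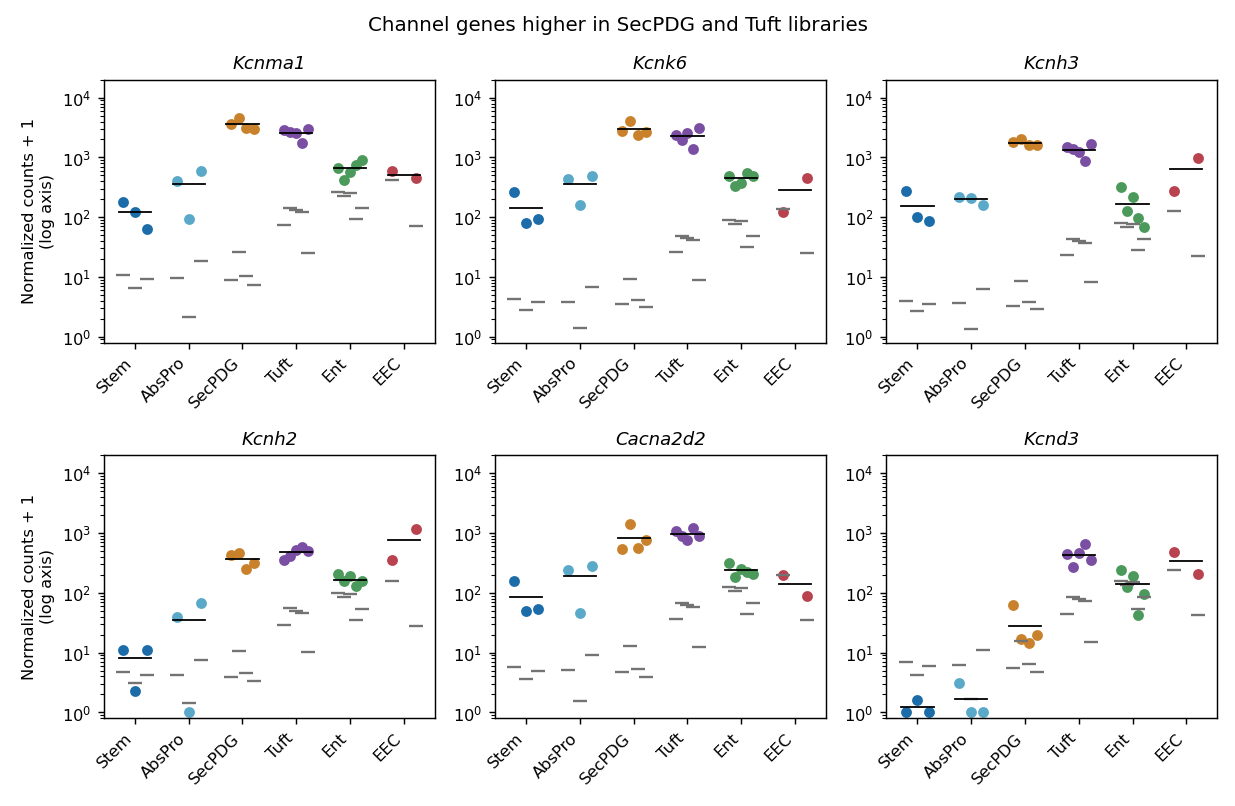
Normalized counts of Kcnma1, Kcnk6, Kcnh3, Kcnh2, Cacna2d2 and Kcnd3 by cell type, drawn as points for libraries, black lines for means and grey dashes for expected background. Kcnma1, Kcnk6 and Kcnh3 are high in SecPDG and Tuft together, where goblet markers are high too. Kcnd3 reaches 271 to 671 in Tuft and 13.5 to 61.5 in SecPDG.

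Tuft differed from Stem in 49 members (46 higher, 3 lower), 35.8% of the members where 12.1% of all genes were called (7.84% higher, 4.23% lower). Only 10 of the 46 higher members were clear of background in Tuft. All 10 remained called after the background was taken off, against 8 of the other 36. The same background rate defined the clear members, so their staying called adds little support. Without Tuft 2 to 4, the tuft libraries with the most background, the count fell from 49 to 16, and 8 of the 10 clear members remained. The 10 were the 8 members higher in SecPDG plus Kcnd3 and Cacna1a. Goblet markers averaged 963792 in Tuft and 1487240 in SecPDG. For the 8 shared members, SecPDG cells or RNA in the Tuft samples cannot be told apart from expression by tuft cells.

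Kcnd3 (chr3:105452330-105674002, plus strand), the pore of a rapidly inactivating A-type potassium current, was clear of background in Tuft and in no other cell type. It read 442, 271, 459, 671 and 350 in Tuft, 61.5, 16.2, 13.5 and 18.6 in SecPDG, and 0, 0.640 and 0 in Stem. With a single raw count over the 3 Stem libraries the ratio of Tuft to Stem was 2055, with a 95% counting interval from 369 to 81156. Tuft exceeded SecPDG by 3.97 ± 0.50 on the log2 scale (edgeR adjusted p = 4.38e-08), a call kept in every alternative. Ent (42.2 to 243) and EEC (475 and 204) also held Kcnd3 counts, at 0.786 to 4.83 times their expected background, and EEC against Tuft was -0.43 ± 0.45 (adjusted p = 0.525).

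Cacna1a (chr8:84388440-84640246, plus strand), the P/Q-type pore of presynaptic endings, was clear in Stem, AbsPro, SecPDG, Tuft and EEC. It read 490, 305 and 433 in Stem, 173 to 536 in SecPDG and 675 to 1641 in Tuft, so that every Tuft library exceeded every Stem and SecPDG library. The rise over Stem was 1.32 ± 0.38 (edgeR adjusted p = 0.00680) and over SecPDG 1.57 ± 0.36 (adjusted p = 0.00262). The first was lost in 8 of 20 alternatives, among them each Stem library left out in turn and the fit without Tuft 2 to 4 (1.08), and the second in 6 of 21. Tuft against SecPDG called 25 members, all higher, where 3.37% of all genes were called (3.02% higher, 0.351% lower), and Cacna1a and Kcnd3 were the only 2 of them clear of background. That count was 4 without Tuft 2 to 4.

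Enterocytes differed from Stem in 62 members (57 higher, 5 lower), 45.3% against 22.2% of all genes (10.7% higher, 11.5% lower). Of the 57 higher members 56 were not clear of background, and 23 of these 56 remained called once the background was taken off. The same comparison called 535 of the background genes higher when no minimum mean was asked. With the minimum mean of 50 used for the members, it called 1 of them. The exception was Kcnk6, which rose by 1.67 ± 0.43 (edgeR adjusted p = 0.00106), from 79.4 to 260 in Stem to 335 to 553 in Ent, at 4.46 to 18.2 times background. That call was lost without Stem 2 or without Stem 3. The 5 lower members were Kcnq1, Kcne3, Kcnk1, Kcnn4 and Cacnb3, all clear of background.

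Against AbsPro, the progenitor of the absorptive lineage, Ent differed in 54 members (49 higher, 5 lower), and 0 of the 49 were clear of background. Of all genes 16.2% were called there, 8.21% higher and 7.97% lower. The lower members were the same 5 genes. Kcnq1 alone of them remained called with the background taken off, and also alone without EEC 1 and Ent 1 to 3. The others fell by 1.02 to 1.31 on the log2 scale with the standard scaling, and the median gene of at least 50 counts stood at -0.38 in this comparison. DESeq2's size factors moved that median to 0.27, and under them Kcne3 (-0.73), Kcnn4 (-0.84) and Cacnb3 (-0.51) were no longer called.

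**Figure D4:**
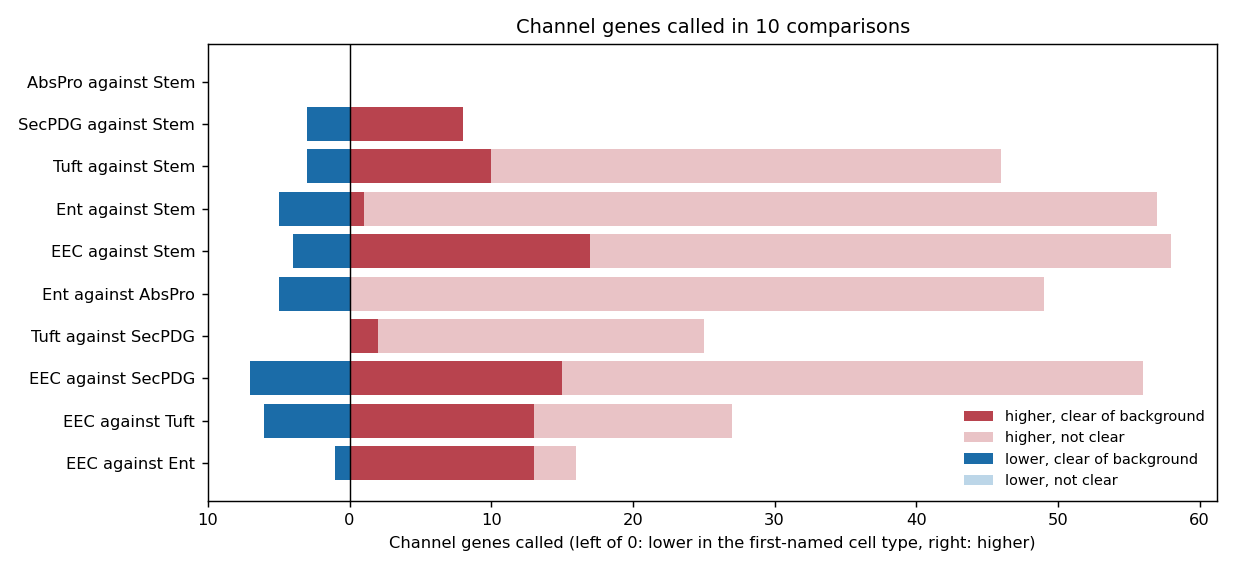
Number of channel genes called higher or lower in each of the 10 comparisons (edgeR adjusted p below 0.01, mean 50 or more), split by whether the gene was clear of background in the group where it was higher. In Ent against Stem 56 of 57 higher genes are not clear, and in SecPDG against Stem all 11 called genes are clear.

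Enteroendocrine cells differed from Stem in 62 members (58 higher, 4 lower), 45.3% against 19.9% of all genes (10.8% higher, 9.13% lower). Of the 58, 17 were clear of background, and all 17 remained called with the background taken off and without EEC 1, and 15 without EEC 2. Of the 41 that were not clear, 19 remained with the background taken off and 16 without EEC 1. The 4 lower members were Kcnq1, Kcne3, Kcnk1 and Kcnn4. Every fit without EEC 1 or without EEC 2 holds a single EEC library and takes its spread from the other groups. Calls kept or lost in such fits, here and below, do not measure the spread between EEC replicates. The EEC means rest mainly on EEC 2, since 45 members reached 5 times background there and 11 in EEC 1. The 2 libraries differ by several fold in most of the values below.

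The Kv pores were led by Kcnc1 (chr7:46396497-46438704, plus strand), a fast channel that lets neurons fire at high rates. It read 1889 and 5706 in EEC (5.97 and 104 times background), 0, 7.04 and 13.5 in Stem, 0 to 23.6 in SecPDG, 17.1 to 185 in Tuft and 48.5 to 224 in Ent. Both EEC libraries stood above all 20 others. Its log2 difference was 9.05 ± 0.64 from Stem (edgeR adjusted p = 5.60e-18), 5.44 ± 0.40 from Tuft (adjusted p = 2.51e-17) and 4.99 ± 0.39 from Ent (adjusted p = 7.15e-16). The difference from Stem was 9.46 in the fit without EEC 1 and 8.03 in the fit without EEC 2. Kcnb2 (chr1:15287254-15723750, plus strand), a delayed rectifier pore, read 535 and 2873 in EEC, 1.07 and 33.2 times background, so only EEC 2 stood clear of it, and at most 195 in any other library. Its difference from Stem was 7.96 ± 0.75 (adjusted p = 3.35e-13), 8.52 without EEC 1 and 6.25 without EEC 2.

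The calcium channel genes of EEC were the pores Cacna1a and Cacna1h with the subunit Cacna2d1. Cacna1a read 1839 and 8552 in EEC against 354 to 746 in Ent, 3.68 ± 0.44 above Stem (edgeR adjusted p = 1.06e-09) and 3.41 ± 0.37 above Ent (adjusted p = 2.78e-10). Cacna1h read 1367 and 9304 against 274 to 438 in Ent, 8.27 ± 0.63 above Stem (adjusted p = 5.05e-16) and 3.85 ± 0.39 above Ent (adjusted p = 2.07e-11). Tpsg1 on the opposite strand averaged 129 in EEC against 5335 for Cacna1h. Cacna2d1 (chr5:15934691-16374511, plus strand), the alpha2delta subunit bound by gabapentin, read 1607 and 6107 in EEC, 154 to 214 in Stem, 40.3 to 74.8 in AbsPro and 94.2 to 231 in Ent. It stood 4.46 ± 0.41 above Stem (adjusted p = 4.28e-13), 4.75 ± 0.36 above Tuft (adjusted p = 9.91e-16) and 4.67 ± 0.37 above Ent (adjusted p = 5.12e-15). For all 3 genes both EEC libraries stood above every Stem and every Ent library.

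The sodium channel pores had 1 strong member in the colon crypt. Scn3a (chr2:65457118-65567627, minus strand), a pore of developing neurons and endocrine cells, read 1014 and 5994 in EEC (3.52 and 120 times background). It read 112, 0 and 9.43 in Stem, and the AbsPro libraries lay between 3.25 and 157. SecPDG gave 0 to 59.7, Tuft gave 105 to 205, and Ent gave 125 to 419. The EEC libraries exceeded all others, by 6.56 ± 0.63 over Stem (edgeR adjusted p = 1.27e-12) and 3.67 ± 0.44 over Ent (adjusted p = 3.33e-09), and without EEC 2 the Ent comparison was not called (1.86, adjusted p = 0.0119). Scn3a made up 55.1% of the summed counts of the 10 sodium channel pores in EEC. Scn11a, named after its values were seen, was the other sodium channel pore clear of background there, at 1050 and 289 counts (5.33 and 8.48 times background). No sodium channel pore was clear of background in SecPDG, Tuft or Ent, although 6 of the 10 were called higher in Tuft and all 10 in Ent against Stem.

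Among the K2P channels, Kcnk3, an acid-sensitive leak channel of chemoreceptive cells, was clear in EEC alone. It read 387 and 872 in EEC (3.01 and 39.2 times background) and at most 92.3 in any other library, 7.50 ± 0.78 above Stem (edgeR adjusted p = 1.07e-11) and 4.20 ± 0.52 above Ent (adjusted p = 5.15e-09). Without EEC 2 its mean over libraries fell under 50, and it was then not called. The other clear members above Stem, chosen here after their values were seen, were Cacna1b (5.34), Cacna2d4 (6.63), Cacnb1 (5.12), Kcnab3 (4.88), Kcnh6 (5.41), Kcnh8 (3.73) and Kcnn3 (5.58) on the log2 scale, besides Kcnh2 and Kcnh3. Kcnh6, a further ERG pore, read 278 and 2805 in EEC. Cacna2d4 (1211 and 448) and Kcnn3 (497 and 127), an SK channel, were higher in EEC 1 than in EEC 2.

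**Figure D5:**
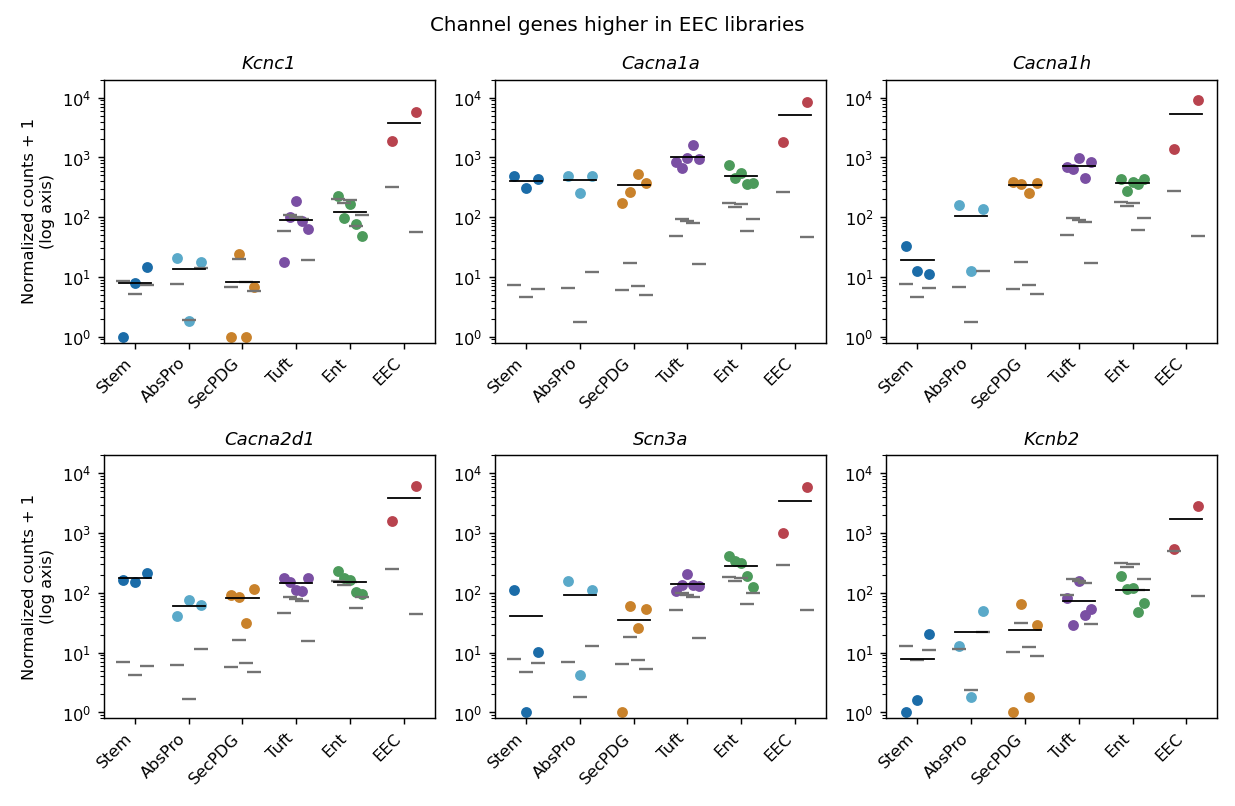
Normalized counts of Kcnc1, Cacna1a, Cacna1h, Cacna2d1, Scn3a and Kcnb2 by cell type, with points for libraries, black lines for means and grey dashes for expected background. Both EEC libraries stand above all 20 others for these 6 genes, and the lower point in each EEC column is EEC 1, where the background is high.

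Set beside the other differentiated groups, which carry background of their own, EEC still differed. EEC against Ent called 17 members (16 higher, 1 lower) where 4.69% of all genes were called (3.43% higher, 1.26% lower), and 13 of the 16 were clear of background. EEC against Tuft called 33 (27 higher, 6 lower) where 9.3% of all genes were called (4.74% higher, 4.56% lower), with 13 of the 27 clear. EEC against SecPDG called 63 (56 higher, 7 lower) where 21.2% of all genes were called (11.2% higher, 10.1% lower), with 15 of the 56 clear. Of the 13 clear members above Ent, all 13 remained without EEC 1 and 6 without EEC 2, and DESeq2 called 7.

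The members lower in EEC were potassium channel genes and 1 calcium channel alpha2delta gene, Cacna2d2. Against Tuft these were Kcnk6 (-2.89 ± 0.48), Cacna2d2 (-2.86 ± 0.54), Kcnn4 (-2.74 ± 0.58), Kcne3 (-2.36 ± 0.52), Kcnma1 (-2.33 ± 0.45) and Kcnk1 (-2.31 ± 0.42), with edgeR adjusted p of 6.14e-06 to 5.97e-04. Against SecPDG the same 6 and Kcnh3 (-1.43 ± 0.42) were lower. Thus Kcnma1 at 582 and 451 and Kcnk6 at 123 and 456 separated EEC from both secretory groups, while Kcnh2 was not called lower in EEC.

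Several members known from pancreatic beta cells or neurons were not clear of background. Kcnj11, the pore of the ATP-sensitive potassium channel that closes when beta cells take up glucose, had 0 counts in all 3 Stem libraries, 48.8 to 116 in Tuft, and 134 and 0 in EEC. The L-type calcium pores Cacna1c and Cacna1d averaged 1077 and 746 in EEC, but by group means were clear of background in no group. Single libraries passed 5 times background, among them EEC 2 and Tuft 1 for Cacna1c, at 602 and 711 raw counts. Cacna1d passed it in Tuft 1 but in neither EEC library, and Chdh overlaps Cacna1d on the opposite strand. Scn8a (1256 and 257 in EEC) and the beta subunit Cacnb2 (233 and 109) were also clear in no group. None of the 15 inward rectifiers was clear in Ent or EEC, and none of the 8 gamma subunits in any group. These verdicts use group means, and EEC 1 brings most of the EEC background. In EEC 2, Kcnj2, Kcnj3 and Kcnj5 held 409, 388 and 282 raw counts, and the gamma gene Cacng4 held 165. Each was over 5 times its expected background there and under 5 times in EEC 1. These genes were named after their values were seen.

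Cells outside the epithelium also carry these channels, so their markers were read in the same libraries. The neuron and glia list of 7 genes summed to 2300 to 4938 in EEC, to 105 to 302 in Tuft and to 219 to 579 in Ent. In EEC the sum was mostly Snap25 (2885), which endocrine cells also use for secretion, and Elavl3 (484). Prph, S100b and Sox10 each averaged 28.9 to 78.6 there, with an expected background of 68.3% to 102% of the mean. The smooth muscle list of 5 genes summed to 124 and 1992 in the EEC libraries, to 322 to 1019 in Ent, to 82.8 to 566 in Tuft and to at most 97.9 in Stem, AbsPro and SecPDG. The endothelial list of 4 genes summed to 780 and 1143 in EEC, to 281 to 613 in Ent, to 82.8 to 435 in Tuft and to at most 75.8 in the other groups. In EEC this was mostly Pecam1 (676, with 10.1% expected background), while Cldn5 was at 0. The immune list of 6 genes summed to 1300 to 3269 in Tuft, 307 to 803 in Ent, 431 and 1602 in EEC, and at most 103 in Stem, AbsPro and SecPDG. In Tuft this was mostly Ptprc (1671), and the other 5 genes averaged 15.8 to 114 with an expected background of 27.3% to 67.0%. The part of muscle, endothelial and immune cells in the channel results was not tested.

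Partners of these channels were read from a list of 39 other genes of excitability (other cation and chloride channels, pumps and regulatory subunits). Against Stem the test called 1 of them higher in AbsPro, 3 higher and 1 lower in SecPDG, 10 and 1 in Tuft, 16 and 0 in Ent, and 14 and 0 in EEC. Of all genes, 0.496%, 3.38%, 7.84%, 10.7% and 10.8% were called higher in these comparisons. Clear of background among the higher ones were 1, 3, 4, 3 and 5. Lrrc26, a gamma subunit that lets BK channels open at rest, averaged 41.8 ± 7.40 in Stem (SD, n = 3), 1467 ± 470 in SecPDG (n = 4), 602 ± 195 in Tuft (n = 5) and 176 ± 60.3 in EEC (n = 2). It thus rose beside its pore Kcnma1, by 5.13 ± 0.47 in SecPDG (edgeR adjusted p = 1.72e-12) and 3.86 ± 0.47 in Tuft (adjusted p = 4.92e-09). In EEC the stretch-gated channel Piezo2 rose from 7.69 to 1782 (7.85 ± 0.68, adjusted p = 2.08e-14), the pacemaker channel Hcn4 from 3.89 to 872 (7.88 ± 0.74, adjusted p = 1.84e-13) and Gem, a small GTPase that inhibits calcium channels, from 3.48 to 578 (7.30 ± 0.78, adjusted p = 1.24e-11).

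Splicing reads were held for 10 of the 137 members in 25 skipped-exon events. These tables list libraries in an order that could not be tied to the count libraries, so they are given without numbers. In Kcnq1 the 47-base exon chr7:143363230-143363276 was skipped in 0 of 163, 0 of 149 and 3 of 185 reads of the Stem libraries and in 4 of 77, 66 of 180 and 0 of 39 of the AbsPro libraries. In SecPDG 1 of 4 libraries skipped it in 16 of 80 reads and the others in none of 13 to 24. In Tuft skipping took 45 of 45 reads in 1 library and 12 of 46 in another, none of 15 and 14 in 2 more, and the fifth had no reads. Skipping beyond the Stem range thus lay in 2 AbsPro, 1 SecPDG and 2 Tuft libraries, while the other libraries of these groups with reads had none. The 142-base Kcne3 exon chr7:100182682-100182823 was included at 69.8%, 76.0% and 93.3% in Stem and at 91.0% and 100% in the 2 AbsPro libraries with at least 20 reads. At that depth 2 Ent libraries read 66.35% and 89.15%, 2 SecPDG libraries 100%, and 3 Tuft libraries 94.97% to 100%. These values are for the upstream exon ending at 100178766. With the upstream exon ending at 100181274, all 3 Stem libraries stood at 100%.

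Use of the distal polyadenylation site was held for 6 members. Kcne3 used it at 100% in every library that had a value. Kcnk5 used it at 61%, 66% and 61% in Stem, at 38% to 55% in Ent and at 41% to 80% in AbsPro, so Ent lay below all Stem libraries while AbsPro spanned them. Kcnn4, Kcnq1 and Cacnb3 differed as much within groups as between them: the distal share of Kcnq1 was 64% to 87% in Stem and 41% to 84% in AbsPro.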

How the data were processed

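Sorted colon crypt cells were sequenced by the authors as low-input RNA (100 bp paired reads). They aligned reads to mm10 with STAR 2.5.2a and deposited raw read counts per gene, made with HTSeq 0.6.1p1 without regard to strand. The files also held 5 entries per library that name no gene; reads outside genes were 40.9% to 89.7% and ambiguous reads 0.164% to 1.04% of the reads assigned to any of these or to genes, and all 5 entries stayed out of library sizes and tests. The authors also deposited the fraction of distal polyadenylation site use (DaPars) and inclusion and skipping read counts of exons (rMATS), which were described without a test. Their comparison columns and MAJIQ tables hold fold changes or probabilities and were not used.

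Counts were tested with edgeR 4.0.16 (R 4.3.3, filterByExpr, TMM, quasi-likelihood F test, all 22 libraries in 1 fit by cell type), with Benjamini-Hochberg adjustment over the 22781 genes tested. A gene was called at an adjusted p under 0.01 and a mean normalized count, over the 22 libraries, of 50 or more. Normalized counts are counts divided by the effective library size and multiplied by its mean over libraries. The background rate of a library was the counts per kilobase of 1188 receptor and defensin-type genes with models of 500 to 1500 bases, and exon lengths came from GENCODE vM21. The intervals cover counting error only.

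The members and all lists were chosen with earlier results of these data known. Members were named as textbook members, as the largest called and non-overlapping changes of a comparison (6 up and 4 down against Stem, 3 and 3 otherwise) or as the 3 highest per kilobase in a cell type, and others as chosen after their values were seen; some genes of these lists are not reported here. Replicate numbers were not used to pair the samples, since the paper describes replicates as independent mice and sorts. Over 44 same-numbered pairs the correlation of deviations ran from -0.39 to 0.49, with a median of 0.0014 against 0.020 for other pairs. It was above 0.1 in 16 of the 44. Whether some same-numbered samples of different groups shared mice is not known. Scripts were tested on simulated data.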

Additional observations from a re-analysis of the deposited data

Results flagged for a closer look

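Among 38 groups of named members with 4 or more libraries, 1 library stood apart: Cacnb3 in Ent 4, at 817.8 normalized counts while the other 4 enterocyte libraries read 287.7 to 437.6. The gap to the nearest library was 0.717 of the whole range. Chance alone flags about 1 group in 20. Ent 4 was also the enterocyte library with the least background and the most counts, 12966128.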

How the results depend on the processing

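The calls of Kcnq1 in SecPDG, Tuft, Ent and EEC against Stem, and of Kcnma1, Kcnk6, Kcnh3, Kcnh2, Cacna2d2, Cacna1h and Cacna1b in SecPDG against Stem, were kept in each alternative run, but the counts of called members moved with the background and with single libraries. Leaving out 1 library at a time, the count ran from 0 to 1 in AbsPro against Stem, 9 to 11 in SecPDG against Stem, 25 to 54 in Tuft against Stem (25 without Stem 2, 30 without Stem 3), 50 to 63 in Ent against Stem, 37 to 62 in EEC against Stem (37 without EEC 1), 38 to 56 in Ent against AbsPro, 9 to 34 in Tuft against SecPDG (9 without SecPDG 3), 35 to 61 in EEC against SecPDG (35 without EEC 1), 20 to 38 in EEC against Tuft (20 without EEC 1) and 14 to 18 in EEC against Ent. With the background taken off the counts were 22 in Tuft, 29 in Ent and 40 in EEC against Stem, 18 in Ent against AbsPro, 8 in Tuft and 39 in EEC against SecPDG; with a rate from all models, chosen after the data were seen, Tuft gave 32 against Stem and 13 against SecPDG. The other alternatives chosen after the data were seen were the older quasi-likelihood form (30 in Tuft and 41 in Ent against Stem, 22 in Ent against AbsPro, 4 in Tuft against SecPDG, 12 in EEC against Tuft, 9 in EEC against Ent), the fit without Tuft 2 to 4 (16 against Stem, 4 against SecPDG) and the fit without EEC 1 and Ent 1 to 3 (Ent 27 and EEC 34 against Stem, 15 in Ent against AbsPro, EEC 33 against SecPDG and 21 against Tuft). Without a minimum mean the counts were 110 (Ent) and 98 (EEC) against Stem and 93 in Ent against AbsPro. DESeq2's Wald test gave 3 in AbsPro against Stem, 20 in EEC against Tuft and 9 in EEC against Ent. Fitting only the 2 cell types gave 34 in EEC against Stem and 9 in EEC against Ent. Tuft against SecPDG moved further, to 14 with DESeq2's size factors, 16 with library totals and 46 at an adjusted p under 0.05. Beyond fewer samples or genes, the cause was not tested. The shares of all genes called in these runs, and with the block below, are not given here. Whether the members moved more or less than all genes therefore cannot be judged from these counts.

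With the replicate number as a block the counts were 0, 12, 56 and 62 in AbsPro, SecPDG, Tuft and Ent against Stem, 62 in EEC against Stem, 57 in Ent against AbsPro, 34 in Tuft and 61 in EEC against SecPDG, 24 in EEC against Tuft and 16 in EEC against Ent.

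DESeq2's size factors moved the median log2 difference over the genes averaging 50 or more counts from -0.30 to 0.35 in Ent and from -0.30 to 0.48 in EEC against Stem. Values of 9 results of named members changed sign or came to 0. With the background taken off, Kcnb2 was -4.57 in Ent against Stem. Without EEC 1, Kcne1 was -6.92 and -5.08 and Kcnmb1 -4.95 and 0.0 in EEC against SecPDG and Stem, and without EEC 1 and Ent 1 to 3 they were -6.82, -5.08, -4.86 and 0.0. With 1 library left out at a time, Kcne1 ran from -6.92 to 4.79 against SecPDG and from -5.08 to 10.36 against Stem, and Kcnmb1 from -4.95 to 6.59 and from 0.0 to 11.43. These fitted values of near-zero counts are no bounds. Depth and background limit EEC 1 most, so low members there could not be resolved. Fits that leave out an EEC library hold a single one, whose spread is taken from the other groups.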
